A study of Mus musculus with 8 samples.

Results

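The miRNA expression profiles of the unperturbed state were compared between the mouse lines of the study, P19 embryonal carcinoma cells and C2C12 skeletal myoblasts. The members were the shNC library of P19 cells and the vector library of C2C12 cells, 2 of the 8 small RNA libraries in the series, chosen by their labels as the controls of the pair of tables deposited as RPM (reads scaled to a common total of reads on miRNAs). P19 is a pluripotent-like line that came from a mouse teratocarcinoma, and C2C12 is a line of adult mouse muscle precursors. P19_shNC cells carried a negative control hairpin RNA, and C2C12_vector cells carried the empty vector that served as the control for ATF4 overexpression, so the controls themselves were of different kinds. The labels give neither a day nor an induction state for the P19 cells, and no day for the vector cells, which the study describes as undifferentiated. The methods describe stable C2C12 lines made by lentiviral infection and puromycin selection, and the same is not stated for P19. The other 6 libraries were P19_shPerk (a hairpin against Perk, which encodes an endoplasmic reticulum stress kinase), C2C12_ATF4 (overexpression of the transcription factor ATF4) and C2C12 cells with shNC or shPerk at day 0 and day 3 of differentiation. They are perturbed or differentiated and are not replicates, so their values are given beside those of the controls.

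Each line had 1 control library, so no difference between the lines has a replicate check and no test was run. Cell line, control construct and deposited table cannot be told apart, because each line's RPM values stand in a table of its own that was scaled separately. There were 696 miRNAs listed for P19 and 605 for the vector pair, and 490 were in both, of 811 in either. A miRNA that did not reach 1 RPM in either library of a table is not listed there, so its level is unknown but low. The steps between low RPM values correspond to about 7.92 reads per RPM in P19_shNC and 10.6 in C2C12_vector, and the 4 C2C12 hairpin libraries, deposited as raw counts, held 8800977 to 11993448 reads. For those 4 libraries counts-per-million (CPM) were computed. A miRNA with 0 of the 11321915 reads of the shNC day 0 library could still be present at up to 0.265 CPM, a limit that covers counting error only.

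A miRNA is a short RNA that guides a silencing complex to messenger RNAs. Pairing rests mainly on its seed, bases 2 to 8 from the 5′ end, so miRNAs with the same seed are read as a family with shared targets. Many miRNA genes lie in clusters and are made from a common transcript, in which case each hairpin is cut out separately and yields a 5p and a 3p arm. Pluripotent mouse cells are known for the miR-290 to miR-295 and miR-302/miR-367 clusters, and let-7 miRNAs are known as markers of differentiated cells, whose maturation the protein LIN28 blocks in stem cells. miR-21, miR-199, miR-143, miR-145, miR-221 and miR-222 are known from fibroblasts and other mesenchymal cells, and miR-1, miR-133 and miR-206 from muscle.

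The mature sequences below belong to the miRNAs that set the profiles apart. All are mouse sequences from RefSeq on GRCm38.p6, written 5′ to 3′ with the seed in capitals. The first set, high in P19, holds the miR-302 and miR-290 members that share a seed, the X-linked miR-20b-5p and miR-106a-5p, whose seed is the same motif shifted by 1 base, and miR-292a-5p and miR-293-5p, which share another seed.
miR-302b-3p: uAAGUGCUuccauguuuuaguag
miR-302d-3p: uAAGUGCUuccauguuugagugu
miR-291a-3p: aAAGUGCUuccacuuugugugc
miR-294-3p: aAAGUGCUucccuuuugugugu
miR-295-3p: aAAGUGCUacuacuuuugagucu
miR-20b-5p: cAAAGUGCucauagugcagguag
miR-106a-5p: cAAAGUGCuaacagugcagguag
miR-292a-5p: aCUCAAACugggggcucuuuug
miR-293-5p: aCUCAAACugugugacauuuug
The second set is also high in P19 and comes from the imprinted Dlk1-Dio3 region of chromosome 12 (miR-127-3p, miR-409-3p and miR-541-5p) and from the X chromosome (miR-363-3p), the last shown with miR-92a-3p, which has the same seed and was abundant in both lines.
miR-127-3p: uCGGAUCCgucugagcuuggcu
miR-409-3p: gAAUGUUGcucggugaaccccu
miR-541-5p: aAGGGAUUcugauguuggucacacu
miR-363-3p: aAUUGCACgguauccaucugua
miR-92a-3p: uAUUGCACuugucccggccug
The third set is high in C2C12: the most abundant miRNA of that line, 4 let-7 members with one seed, the miR-199 arms, miR-125b-5p and the muscle miRNA miR-206-3p.
miR-21a-5p: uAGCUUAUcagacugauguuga
let-7a-5p: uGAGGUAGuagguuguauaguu
let-7c-5p: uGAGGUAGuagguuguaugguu
let-7i-5p: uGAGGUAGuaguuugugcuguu
let-7b-5p: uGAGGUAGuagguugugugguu
miR-199a-3p: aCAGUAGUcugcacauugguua
miR-199a-5p: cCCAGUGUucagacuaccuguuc
miR-125b-5p: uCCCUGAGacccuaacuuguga
miR-206-3p: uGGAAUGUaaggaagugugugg

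The most abundant miRNA of P19_shNC was miR-302b-3p, with 7.65% of the library, and that of C2C12_vector was miR-21a-5p, with 21.03%. The 10 highest miRNAs took 40.3% of P19_shNC and 56.0% of C2C12_vector. P19_shNC was the more even profile: 16 miRNAs made up 50% of it and 99 made up 90%, against 8 and 48 in C2C12_vector. The numbers for C2C12_vector count miR-199a-3p and miR-199b-3p, which have the same sequence and identical values, as separate miRNAs. In P19_shPerk 6 miRNAs made up 50%, so the P19 libraries themselves differed in this number. No miRNA was among the 10 highest of both control libraries, although miR-92a-3p ranked 5 in P19_shNC and 11 in C2C12_vector, miR-26a-5p 8 and 15, and miR-7a-5p 11 and 3. In C2C12 shNC day 0 miR-26a-5p had 34271 CPM and was among the 10 highest.

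Of the 490 joined miRNAs, 402 had at least 10 RPM in at least 1 control library. A miRNA was called when its RPM differed at least 8-fold, a value of 0 entering as 1 RPM. By this limit 87 miRNAs were higher in P19_shNC, 21.6% of those tested, 65 were higher in C2C12_vector, 16.2% of those tested, and 250 lay between. The median log2 ratio of P19_shNC over C2C12_vector was 0.37, with quartiles of -1.50 and 2.49. Across the 490 joined miRNAs the log2 levels of the control libraries had a Pearson correlation of 0.591 (Spearman 0.606), a description across miRNAs, which are not replicates. The same correlation between C2C12_vector and C2C12 shNC day 0, which come from separate tables of one line, was 0.966 (0.956). Of the 87 miRNAs called for P19, 78 were higher in both P19 libraries than in all 6 C2C12 libraries, which was true of 33.3% of all tested. Of the 65 called for C2C12, 62 were lower in both P19 libraries than in all 6 C2C12 libraries, against 26.4% of all tested. Both control libraries used for the calls are among those compared, and the shares over all tested include the called miRNAs. The higher counts among called miRNAs are therefore in part fixed by the choice. With C2C12_ATF4 in place of C2C12_vector the number higher in P19 was 47, of which 42 were among the 87. The miRNAs nearest the limit were miR-466b-5p, called at a log2 ratio of 3.02, and miR-466e-5p, not called at 2.96. On the C2C12 side they were miR-532-3p, called at -3.002, and miR-574-3p, not called at -2.95.

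**Figure D1:**
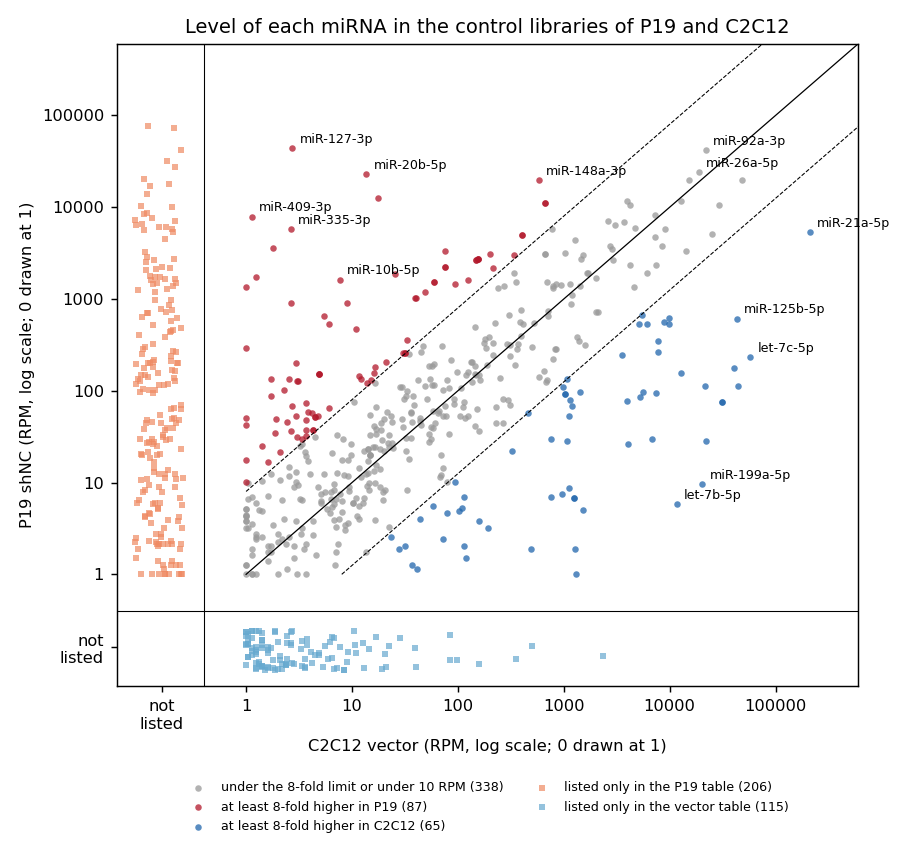
Level of each miRNA in C2C12 vector (horizontal, RPM, log scale) and in P19 shNC (vertical, RPM, log scale), with miRNAs listed in 1 table only in the margins. Red points are the 87 miRNAs at least 8-fold higher in P19 and blue points the 65 at least 8-fold higher in C2C12. The left margin, with the miRNAs listed only for P19, reaches 76522 RPM, whereas the lower margin ends at 2351 RPM.

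A large part of the P19 profile had no counterpart in the vector table at all. The miRNAs listed for P19 only summed to 486887 RPM, 48.7% of P19_shNC, and 46 of them had at least 1000 RPM. The 115 miRNAs listed for the vector table only summed to 4169 RPM, 0.417% of C2C12_vector, and 1 of them, miR-206-3p, had at least 1000 RPM. It was followed by miR-214-5p (501 RPM), let-7b-3p (357 RPM) and miR-143-5p (159 RPM). The C2C12 hairpin libraries, whose tables list 1978 miRNAs, gave values for these miRNAs in other C2C12 libraries. Of the P19-only miRNAs, 180 stayed below 1 CPM in all 4 of those libraries, 26 reached 1 CPM in at least 1 of them, 122 had 0 reads in shNC day 0, and their sum was 48.2 to 150 CPM per library. Some of the 26 were higher in C2C12 than in P19, such as miR-153-3p, listed at 0 in P19_shNC and at 5.38 RPM in P19_shPerk, with 8.13 to 24.5 CPM in the hairpin libraries. The joined miRNAs therefore hold about as much of the P19 library as the unjoined, and the 8-fold counts above do not cover miR-302b-3p and miR-292a-5p, the most abundant P19 miRNAs.

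The miR-302/miR-367 cluster, which marks pluripotent and primitive cells, made up 17.05% of P19_shNC and 42.8% of P19_shPerk. Its 10 listed arms were absent from the vector table. miR-302b-3p had 76522 RPM in P19_shNC and 180818 RPM in P19_shPerk, and 0.083 CPM in 1 of the 4 C2C12 hairpin libraries and 0 reads in the other three. miR-302d-3p had 42087 and 129217 RPM in the P19 libraries and 0 reads in all 4. The 3p arms of miR-302a (17713 RPM) and miR-302c (4502 RPM) and the 5p arm of miR-302a (27182 RPM) were also high in P19_shNC. miR-367-3p, the remaining hairpin of the cluster, had 129 RPM. Members of 1 cluster thus spanned a wide range of levels within P19, while 9 of the 10 arms had 0 reads in all 4 hairpin libraries. The hairpins lie at chr3:127545228-127545807 on the plus strand of GRCm38.p6, inside an intron of Larp7, which is on the opposite strand.

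The miR-290 to miR-295 cluster, which is specific to early mouse embryos and embryonic stem cells, made up 16.8% of P19_shNC and 13.5% of P19_shPerk. miR-292a-5p led with 73206 RPM in P19_shNC and 46216 RPM in P19_shPerk, followed by miR-293-3p with 31614 and 31218 RPM and miR-295-3p with 20160 and 18752 RPM. miR-294-3p had 8488 RPM and miR-291a-3p 7146 RPM in P19_shNC. Of its 14 arms, none was listed in the vector table, and their summed level in the 4 C2C12 hairpin libraries reached at most 1.5 CPM, so both P19 libraries were far above every C2C12 library. The cluster lies at chr7:3218626-3220841 on the plus strand and overlaps an exon of Nlrp12 on the opposite strand. Its lowest arms in P19_shNC were miR-291b-3p with 8.97 RPM and miR-290a-3p with 33.1 RPM, although their seed regions hold the motif AAGUGC of the abundant miR-294-3p.

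miRNAs with the seed of miR-302b-3p took 15.4% of P19_shNC and 34.8% of P19_shPerk. These were 5 miRNAs with a RefSeq sequence, the first 5 printed above, and no miRNA with this seed was listed in C2C12_vector. When the motif AAGUGC was searched within bases 2 to 8, which adds the miR-17 seed, it was found in 14 of 672 miRNAs with a sequence (2.08%). Those 14 took 21.1% of P19_shNC, 38.1% of P19_shPerk and 1.14% of C2C12_vector, and 0.120% to 0.676% of the C2C12 hairpin libraries. The seed of miR-292a-5p, shared by miR-290a-5p and miR-293-5p, took a further 8.61% of P19_shNC and was also not listed in C2C12_vector. In the opposite direction, the let-7 seed took 0.0913% of P19_shNC and 20.2% of C2C12_vector, the miR-21 seed 0.530% and 21.03%, the miR-199-3p seed 0.0150% and 6.22%, and the miR-125 seed 0.459% and 5.23%. The miR-199-3p share enters the same value under 2 names, since miR-199a-3p and miR-199b-3p have the same mature sequence and identical levels. The miR-26, miR-27 and miR-30 seeds each took between 1.67% and 2.58% of both libraries. Sequences were available for 89.4% of the RPM of P19_shNC and 92.7% of C2C12_vector, and miRNAs without one, such as miR-302a-3p, are not in these shares.

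**Figure D2:**
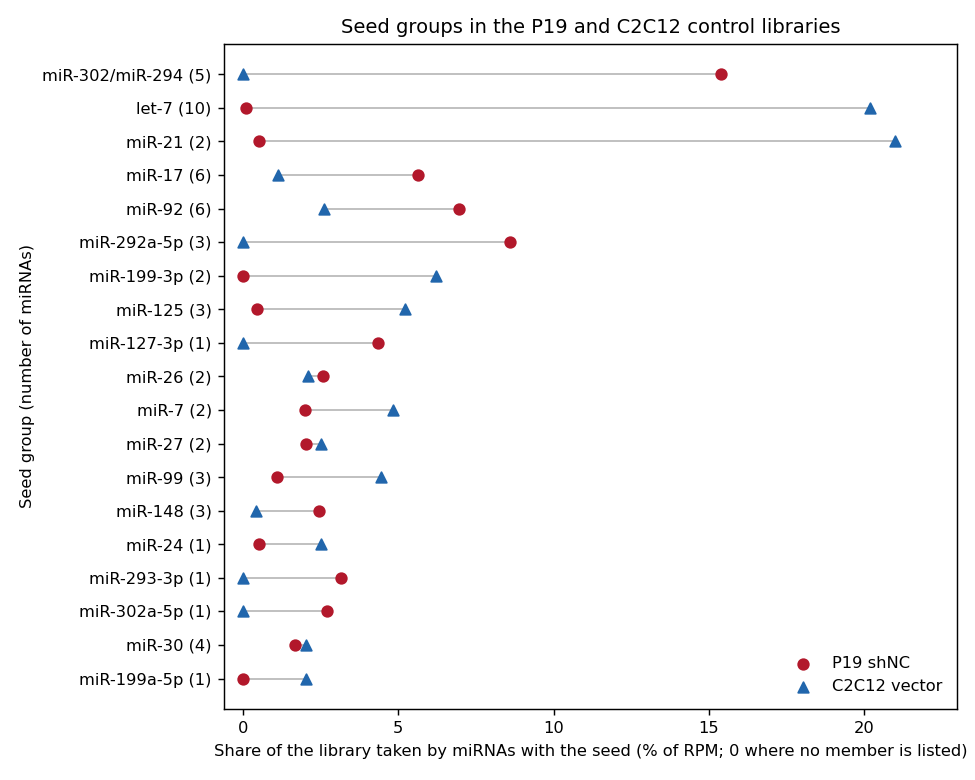
Share of each control library (horizontal, % of RPM) taken by the miRNAs that share a seed, for 19 seed groups, with the number of miRNAs in brackets. Circles are P19 shNC and triangles C2C12 vector. The miR-302/miR-294 group reaches 15.4% in P19 and the let-7 and miR-21 groups 20.2% and 21.03% in C2C12, while the miR-26, miR-27 and miR-30 groups nearly coincide.

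The Dlk1-Dio3 region is an imprinted domain, active in pluripotent and neural cells, whose miRNAs are expressed from the maternal chromosome. The region made up 18.3% of P19_shNC, the largest share of the 20 miRNA groups in that library. It made up 4.72% of P19_shPerk and 0.000567% of C2C12_vector. Of its 86 listed arms, 83 were in the P19 table only. miR-127-3p had 43643 RPM in P19_shNC, 9452 RPM in P19_shPerk and 2.74 RPM in C2C12_vector, was listed at 0 in C2C12_ATF4, and had 0.917 to 1.91 CPM in the C2C12 hairpin libraries. Its log2 ratio of 13.96 was the largest of all joined miRNAs above 0 in both libraries with at least 100 RPM in the higher. miR-409-3p had 7877 RPM against 1.13 RPM (log2 ratio 12.77) and miR-543-3p 3553 RPM against 1.80 RPM (10.95). miR-541-5p (16971 RPM), miR-381-3p (10220 RPM) and miR-379-5p (8677 RPM) were listed for P19 only and stayed below 1 CPM in every C2C12 hairpin library. The summed level of the domain was at most 9.20 CPM in the C2C12 hairpin libraries and 5.67 RPM in C2C12_vector. Its hairpins lie at chr12:109571990-109747960 on the plus strand, miR-127 opposite an exon of Rtl1 and miR-409 and miR-541 within introns of the long RNA Mirg.

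The Sfmbt2 cluster, a large array of repeated hairpins (miR-466, miR-467, miR-669 and others) in an intron of the imprinted gene Sfmbt2, made up 5.64% of P19_shNC and 0.345% of C2C12_vector. Of its 44 tested arms, 41 were called for P19, against 21.6% of all tested, and none for C2C12. The median log2 ratio was 3.86 against 0.37 for all tested. The highest, miR-467b-5p, had 11247 RPM in P19_shNC, 10882 RPM in P19_shPerk and 663 RPM in C2C12_vector, 2156 RPM in C2C12_ATF4, and 791 to 1409 CPM in the C2C12 hairpin libraries. Its level in C2C12 therefore varied with the library, and both P19 libraries were above all 6. Against C2C12_ATF4 the median of the cluster was 2.44, under the 8-fold limit. Several members have identical values in every library, such as miR-466b-3p, miR-466c-3p and miR-466p-3p, so the 41 calls are fewer independent measurements than names. The summed shares of the cluster likewise count each such value once per name. Members were taken by family name and not by their position in the gene. In all, 12 sets of 27 names had identical values, and counting each set once left 77 miRNAs higher in P19 and 62 higher in C2C12.

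The miR-17-92 cluster and its paralogs, which are known to promote proliferation, showed a split between gene copies. Of 20 tested arms 4 were called for P19, a share no higher than the 21.6% of all tested, and the median log2 ratio was 0.99 against 0.37 for all tested. miR-20b-5p had 22811 RPM in P19_shNC, 13343 RPM in P19_shPerk and 13.6 RPM in C2C12_vector, with 10.5 RPM in C2C12_ATF4 and 1.27 to 12.4 CPM in the hairpin libraries (log2 ratio 10.71). miR-106a-5p had 12444 RPM against 17.5 RPM (9.48) and miR-18b-5p 1755 RPM against 1.23 RPM (10.48). miR-363-3p, from the same X-linked cluster, had 13889 RPM in P19_shNC and was not listed for C2C12_vector. These arms come from genes at chrX:52741697-52742563 on the minus strand. The arms of the chromosome 14 cluster at chr14:115043684-115044496 that have no second gene were all under the 8-fold limit: miR-17-5p had 5910 RPM against 4670 RPM (log2 ratio 0.34), miR-18a-5p 292.7 against 183.15 RPM (0.68), miR-19a-3p 66.7 against 17.01 RPM (1.97) and miR-20a-5p 6832 against 3727 RPM (0.87). miR-19b-3p and miR-92a-3p have a gene in both clusters and their reads cannot be divided. miR-92a-3p had 41884 RPM against 22082 RPM (0.92), and miR-19b-3p, the fourth called arm, 3093 RPM against 203 RPM (3.93). Between the control libraries the 3 called arms made only from the X chromosome thus differed by log2 ratios of 9.48 or more, and the 4 made only from chromosome 14 by 1.97 or less. Of these 4, miR-20a-5p was higher in both P19 libraries than in all 6 C2C12 libraries, whereas the others overlapped. The direction of miR-19a-3p turned with the C2C12 library, since it had 66.7 and 66.2 RPM in the P19 libraries but 242 CPM in C2C12 shNC day 0.

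The let-7 family, whose members repress growth genes and mark differentiated cells, was lower in P19 in every tested arm. It made up 0.0939% of P19_shNC and 0.0851% of P19_shPerk, against 20.7% of C2C12_vector, 21.2% of C2C12_ATF4 and 17.5% to 22% of the hairpin libraries. All 14 tested arms were called for C2C12, against 16.2% of all tested, with log2 ratios between -10.97 and -5.92 and a median of -7.72. Because let-7a-1-3p and let-7c-2-3p have identical values, the calls are fewer independent measurements than names, and both names enter the shares of the family. let-7c-5p had 231 RPM in P19_shNC and 399 RPM in P19_shPerk, against 57836 RPM in C2C12_vector, 61784 RPM in C2C12_ATF4 and 49641 to 61568 CPM in the hairpin libraries (log2 ratio -7.97). let-7i-5p had 114 RPM against 43709 RPM (-8.59), and let-7b-5p 5.81 RPM against 11682 RPM (-10.97). let-7g-5p stood above let-7a-5p in both P19 libraries (155.25 against 112 RPM in P19_shNC, 91.5 against 43.1 RPM in P19_shPerk) and below it in C2C12_vector (12914 against 21609 RPM) and the other C2C12 libraries. It stood above let-7i-5p in P19_shNC but not in P19_shPerk. The mature sequences of let-7a, let-7c, let-7b and let-7i printed above differ by 1 to 4 of 22 bases, so reads of one member with an error or an end variant can be counted on another. miR-98-5p, which has the let-7 seed, had 5.05 RPM against 1527 RPM (-8.24).

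A cluster on chromosome 17 held a let-7 gene beside others that were not called. Its arms lie at chr17:17830194-17830840 on the plus strand. let-7e-5p had 85.3 RPM in P19_shNC, 32.1 RPM in P19_shPerk, 5207 RPM in C2C12_vector, 4977 RPM in C2C12_ATF4 and 2608 to 3960 CPM in the hairpin libraries (log2 ratio -5.93). From the same cluster, miR-99b-5p had 10488 RPM in P19_shNC against 29115 RPM in C2C12_vector (-1.47), and miR-125a-5p 3759 RPM against 8511 RPM (-1.18). All 3 arms were lower in P19_shNC, let-7e-5p by far the most. For miR-99b-5p, P19_shNC (10488 RPM) lay within the range of the C2C12 hairpin libraries, 8219 to 11860 CPM, so this gap rests on the choice of C2C12 library. The wider miR-125 and miR-99 group includes the miRNAs transcribed together with let-7 on chromosomes 9 and 16. Of its 9 tested arms 5 were called for C2C12, against 16.2% of all tested, and none for P19, with a median of -4.87. The group made up 1.6% of P19_shNC and 10.2% of C2C12_vector. miR-125b-5p had 608 RPM against 42986 RPM (-6.14), miR-100-5p 95.6 RPM against 7502 RPM (-6.29) and miR-99a-5p 267 RPM against 7824 RPM (-4.87).

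The mesenchymal miRNAs were the largest group of C2C12, with 41.6% of C2C12_vector and 3.56% of P19_shNC. miR-21a-5p alone took 21.03% of C2C12_vector. Of 31 tested arms, 23 were called for C2C12, against 16.2% of all tested, and none for P19. The median log2 ratio was -3.99 against 0.37 for all tested. miR-21a-5p, known from fibroblasts and many tumours, had 5301 RPM in P19_shNC and 5024 RPM in P19_shPerk, against 210282 RPM in C2C12_vector, 196806 RPM in C2C12_ATF4 and 180068 to 262423 CPM in the hairpin libraries (log2 ratio -5.31). It remained above 1000 RPM in both P19 libraries. miR-199a-5p, made from the opposite strand of dynamin genes, had 9.60 RPM against 20291 RPM, the most negative ratio of those above 0 in both libraries with at least 100 RPM in the higher (-11.05). The 3p arms of miR-199a and miR-199b have 1 mature sequence, and both were listed with 75.03 RPM against 31107 RPM (-8.70). Both names enter the share of the group and its count of called arms. miR-143-3p, a smooth muscle and fibroblast miRNA, had 28.2 RPM in P19_shNC and 118 RPM in P19_shPerk, against 21892 RPM in C2C12_vector (-9.60). miR-31-5p had 97.1 RPM against 5543 RPM (-5.84), miR-221-3p 562 RPM against 8855 RPM (-3.98) and miR-29a-3p 533 RPM against 9857 RPM (-4.21). miR-27b-3p did not separate the lines, with 19570 RPM in P19_shNC and 15257 RPM in C2C12_vector (0.36). miR-24-3p, with 5154 RPM against 25120 RPM (-2.29), missed the 8-fold limit but was lower in both P19 libraries than in all 6 C2C12 libraries. Against C2C12 shNC day 0 the median of the group was -2.96, just under the limit.

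The muscle miRNAs were a small part of the myoblast control. They made up 0.459% of C2C12_vector, 0.0242% of P19_shNC and 0.568% to 9.87% of the C2C12 hairpin libraries, the highest being shNC cells at day 3. Of 8 tested arms 5 were called for C2C12, namely miR-133b-3p and the 4 arms of miR-486a and miR-486b, and 1 for P19. Of all tested, 16.2% were called for C2C12 and 21.6% for P19. Because miR-486a-5p and miR-486b-5p have identical values, the calls are fewer independent measurements than names, and both names enter the shares of the group. miR-206-3p, which the study names among the miRNAs of muscle differentiation, had 2351 RPM in C2C12_vector and was not listed for P19. It had 3320 RPM in C2C12_ATF4, 18280 CPM in shNC day 0 and 66926 CPM in shNC day 3. miR-133a-3p had 12.1 RPM in P19_shNC and 69.4 RPM in C2C12_vector (log2 ratio -2.52). miR-1a-3p, which is specific to heart and skeletal muscle, had 21.2 RPM in P19_shNC and 69.6 RPM in P19_shPerk, against 6.42 RPM in C2C12_vector (1.73). In C2C12 it ranged from that value to 17292 CPM in shNC day 3. The vector library was therefore the lowest of the C2C12 libraries for miR-206-3p and miR-1a-3p, and among the muscle miRNAs only miR-206-3p and the miR-486 5p arms exceeded 100 RPM in it. miR-499-5p, from an intron of a slow myosin gene, had 17.4 RPM in P19_shNC and was listed at 0 in C2C12_vector but reached 59.2 CPM in shNC day 3. C2C12_vector thus held miR-206-3p above 1000 RPM, whereas miR-1a-3p, miR-133a-3p and miR-133b-3p stayed under 100 RPM in it.

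**Figure D3:**
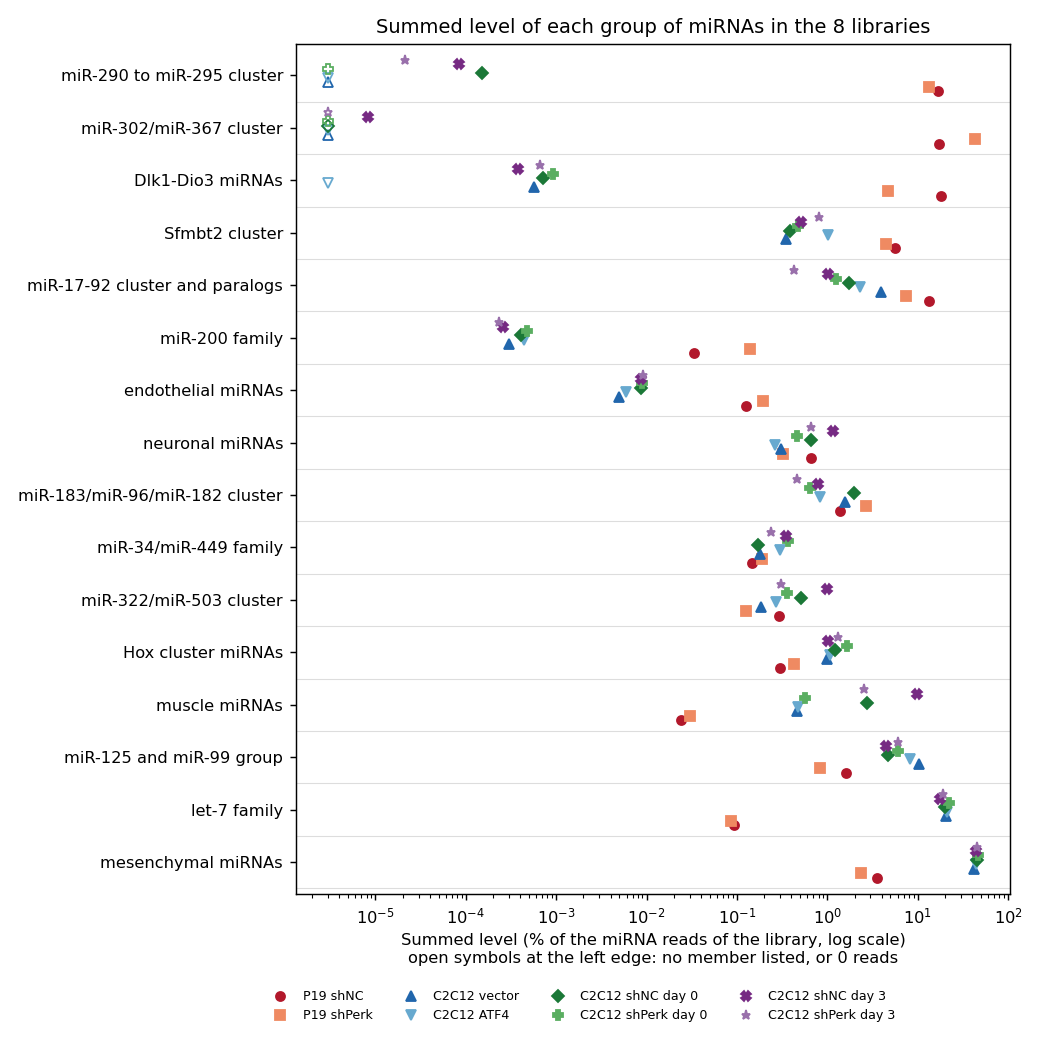
Summed level of 16 groups of miRNAs (rows) in each of the 8 libraries (horizontal, % of the miRNA reads, log scale), with open symbols at the left edge where no member was listed or the count was 0. The miR-290, miR-302 and Dlk1-Dio3 groups lie at 4.72% or more in both P19 libraries and near 0 in all C2C12 libraries, and the let-7 and mesenchymal groups lie apart in the opposite direction. Muscle miRNAs spread from 0.459% to 9.87% within C2C12.

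The miRNAs of the Hox clusters, whose host regions pattern the body axis, were split between miRNA families, miR-10 against miR-196 and miR-615. miR-10b-5p had 1617 RPM in P19_shNC and 3340 RPM in P19_shPerk, against 7.66 RPM in C2C12_vector and 1.92 to 6.58 CPM in the hairpin libraries (log2 ratio 7.72). miR-10a-5p had 655 RPM against 5.48 RPM (6.90). In the other direction, miR-196a-5p had 537 RPM in P19_shNC against 5098 RPM in C2C12_vector (-3.25), miR-615-3p 76.6 RPM against 3981 RPM (-5.70) and miR-196b-5p 6.95 RPM against 751 RPM (-6.76). All 5 tested arms were thus called, 2 for P19 and 3 for C2C12, against 21.6% and 16.2% of all tested. miR-10b lies in an intron of Hoxd3 and Hoxd4 transcripts at chr2:74726070-74726137.

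**Figure D4:**
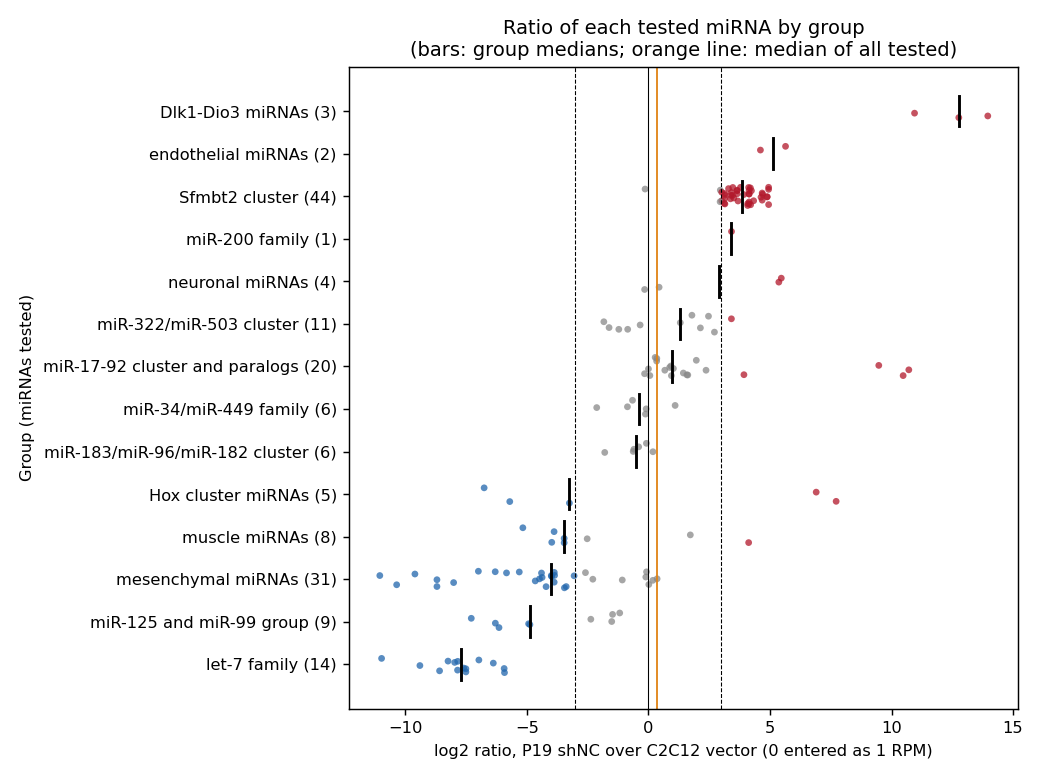
Log2 ratio of P19 shNC over C2C12 vector (horizontal) for each tested miRNA, by group, with group medians as bars, the 8-fold limits as dashed lines and the median of all 402 tested miRNAs (0.37) as the orange line. All let-7 points lie to the left of the lower limit, 41 of the 44 Sfmbt2 points to the right of the upper one, and the miR-17-92 group shows 3 arms far from the others.

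Markers of other lineages gave a mixed picture. In the neuronal list miR-128-3p was abundant in both lines, with 2628 RPM in P19_shNC and 2927 RPM in C2C12_vector (log2 ratio -0.15) and up to 10889 CPM in C2C12 shNC day 3, and it made up most of the list in the vector library. miR-9-5p had 3359 RPM in P19_shNC and 1429 RPM in P19_shPerk against 76.0 RPM in C2C12_vector (5.47), but C2C12 shPerk cells had 2641 CPM at day 0 and 4044 CPM at day 3, so the lines overlapped. miR-124-3p, the defining miRNA of neurons, had 198 RPM in P19_shNC and 29.6 RPM in P19_shPerk and 0 reads in all 4 C2C12 hairpin libraries. The list as a whole made up 0.660% of P19_shNC and 0.305% of C2C12_vector, with 2 of 4 tested arms called for P19. Both were arms of miR-9, and both overlapped between the lines. Of all tested miRNAs, 21.6% were called for P19 and 16.2% for C2C12. The endothelial miRNA miR-126a-3p had 1194 RPM in P19_shNC and 1883 RPM in P19_shPerk, against 49.0 RPM in C2C12_vector and 83.7 to 89.9 CPM in the hairpin libraries (4.61), and its 5p arm, with 49.9 RPM, was listed at 0 in C2C12_vector. Of 4 tested haematopoietic arms, miR-146a-5p was called for P19 (538 RPM against 6.05 RPM) and miR-155-3p for C2C12 (2.53 against 23.3 RPM), and miR-451a, from red cells, was low in both (29.7 and 56.3 RPM). Of 3 tested hepatic arms only miR-122-5p was called (4.67 against 79.7 RPM), and its level in the C2C12 hairpin libraries was 2.76 to 10.1 CPM. The part of other cells in these values was not tested.

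The miR-200 family, known from epithelial and pluripotent cells, was low in P19_shNC, with 0.0332% of the library, and lower still in C2C12_vector, with 0.000302%. Its highest member, miR-200b-3p, had 166 RPM in P19_shNC and 780 RPM in P19_shPerk, was not listed for C2C12_vector and reached at most 1.02 CPM in the hairpin libraries. miR-200c-3p, its only tested arm, had 31.6 RPM against 3.02 RPM (log2 ratio 3.39) and was called. The miR-183/miR-96/miR-182 cluster, known from sensory cells and also found in stem cells, made up 1.39% of P19_shNC and 1.59% of C2C12_vector. In it 0 of 6 tested arms were called, where 250 of all 402 tested miRNAs were also not called. miR-182-5p had 8213.7 RPM against 7217 RPM (0.19). For the miR-34/miR-449 family, linked to the p53 response, 0 of 6 tested arms were called, and miR-34c-5p had 1095 RPM against 1191 RPM (-0.12).

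Of the remaining groups, the X-linked miR-322/miR-503 cluster, known to rise as myoblasts leave the cell cycle, had 1 of 11 tested arms called. This was miR-542-3p (356 RPM in P19_shNC against 33.4 RPM in C2C12_vector, log2 ratio 3.42). It overlapped between lines, since shNC day 3 had 659 CPM. Of all tested miRNAs, 21.6% were called for P19 and 16.2% for C2C12. The testis-type X cluster had 0 of 4 tested arms called and at most 20.2 RPM for an arm in P19_shNC. From the H19 and Igf2 locus, miR-675-3p (19.4 RPM) and miR-675-5p (16.9 RPM) were listed for C2C12_vector only and miR-483-3p (9.35 RPM) for P19 only.

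Of the 87 miRNAs called for P19, 58 were in one of the 20 groups, as were 52 of the 65 called for C2C12. Among the others the following were chosen after their values were seen. miR-148a-3p had 19730 RPM in P19_shNC and 51302 RPM in P19_shPerk, against 580 RPM in C2C12_vector (log2 ratio 5.09), 4132 RPM in C2C12_ATF4 and 577 to 15897 CPM in the hairpin libraries. miR-335-3p, from an intron of the imprinted gene Mest, had 5775 RPM against 2.65 RPM (11.09) and at most 19.1 CPM in the hairpin libraries. miR-340-5p had 899 RPM against 2.65 RPM (8.41), and miR-708-5p, with 1348 RPM in P19_shNC, was listed at 0 in C2C12_vector. On the C2C12 side several neighbours on the X chromosome were called. miR-532-5p had 534 RPM against 6137 RPM (-3.52), miR-501-3p 79.3 RPM against 1147 RPM (-3.85), miR-362-5p 110 RPM against 973 RPM (-3.15) and miR-188-5p 10.2 RPM against 92.9 RPM (-3.18). miR-500-3p from the same stretch, with 3.28 RPM against 22.3 RPM (-2.77), was not called, and miR-532-3p, called at 57.0 RPM against 456 RPM, overlapped between the lines across the 8 libraries. The arms of miR-500, miR-501, miR-362 and miR-188 lie within chrX:7237695-7248051 on the minus strand.

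**Figure D5:**
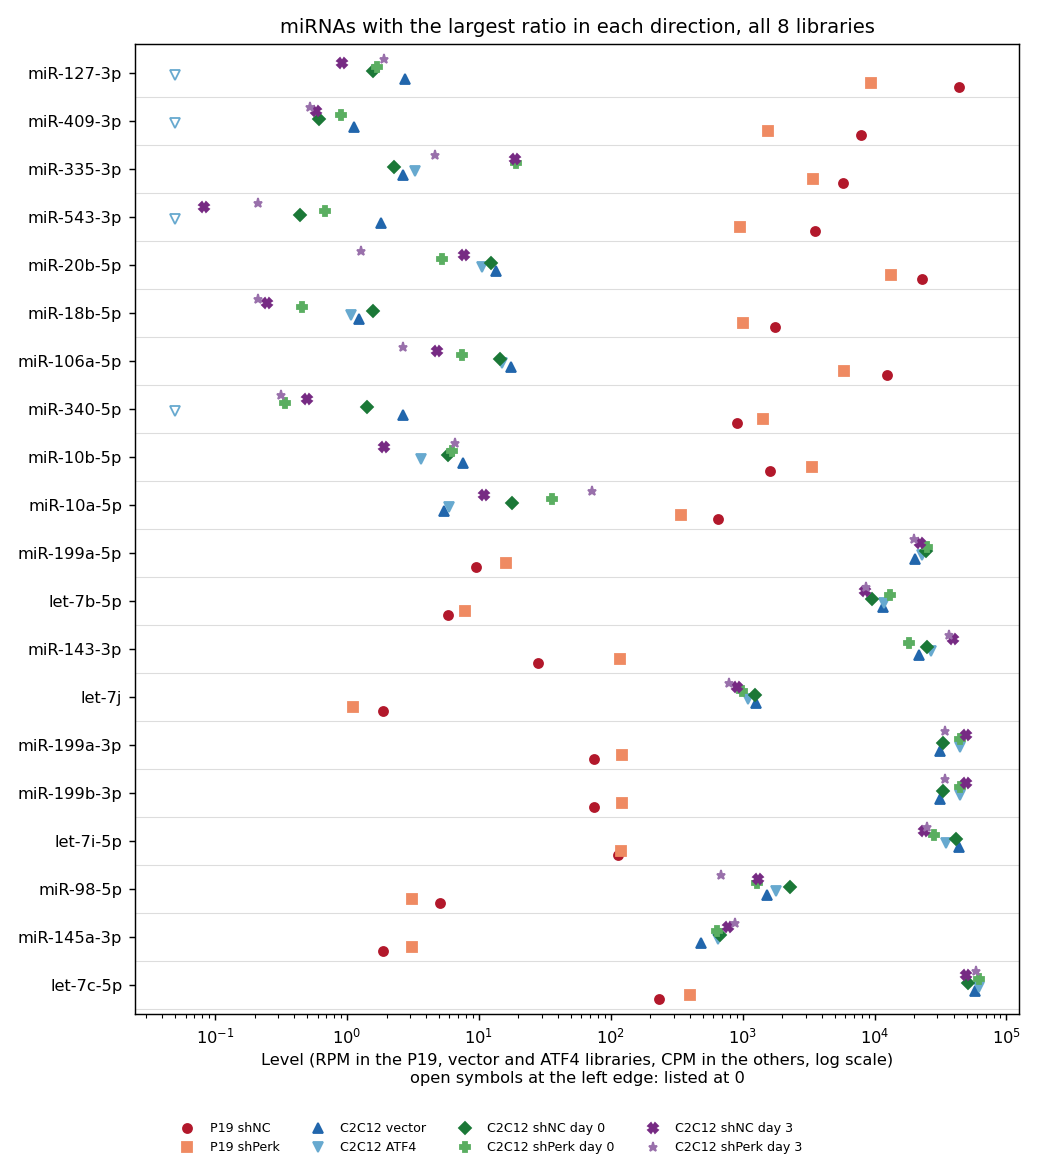
Level (horizontal, RPM or CPM, log scale) of 20 miRNAs in all 8 libraries, open symbols marking values listed at 0. They have the 10 largest log2 ratios in each direction among miRNAs above 0 in both control libraries with at least 100 RPM in the higher. In each of the 20 rows both P19 symbols lie on one side of all 6 C2C12 symbols, from miR-127-3p (43643 RPM in P19 shNC, 2.74 RPM in C2C12 vector) to let-7c-5p (231 and 57836 RPM). The rows were chosen by the ratio of the control libraries, which are among those drawn, so this was largely fixed by the choice. Of all tested miRNAs, 33.3% had both P19 libraries above all 6 C2C12 libraries and 26.4% had them below.

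Abundant miRNAs with near-equal levels were also found. At least 1000 RPM in both control libraries and a ratio within 2-fold was shared by 21 miRNAs. miR-26a-5p had 24112 RPM in P19_shNC and 18804 RPM in C2C12_vector (log2 ratio 0.36), miR-30c-5p 11741 RPM against 12703 RPM (-0.11), miR-191-5p 3757 RPM against 2719 RPM (0.47) and miR-16-5p 2749 RPM against 1460 RPM (0.91). miR-7a-5p, among the 10 highest of C2C12_vector, had 19800 RPM against 48293 RPM (-1.29), and within C2C12 its lowest level was 3730 CPM in shPerk cells at day 3. Within C2C12 miR-26a-5p reached 86708 CPM in shPerk cells at day 3, so near-equal control levels did not mean a constant level across libraries.

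The balance between the arms of a hairpin was mostly shared. Of 105 hairpins with at least 20 RPM summed over both arms in each control library, 85 had shares of the 5p arm within 10 percentage points, with a median gap of 2.50 points, and 8 had another main arm. The largest gap was that of miR-301b, with 46.8% 5p in P19_shNC and 90.3% in C2C12_vector, followed by miR-503 (81.0% and 42.5%), miR-466i (63.1% and 97.2%), miR-32 (82.6% and 52.5%) and miR-199a (11.3% and 39.5%). Some of these rest on low levels in one line, such as 31.2 RPM summed over both arms of miR-301b in C2C12_vector and 84.6 RPM of miR-199a in P19_shNC. Within P19 the values were close in both libraries for miR-301b (46.8% and 46.6%) and miR-199a (11.3% and 11.6%). Within C2C12 the 5p share of miR-301b ranged from 47.0% to 90.3% and that of miR-503 from 40.6% to 68.6%, while that of miR-199a stayed between 31.1% and 42.7%, above both P19 libraries. The 3p value of miR-199a is also that of miR-199b, which has the same 3p sequence, so the share is not that of the miR-199a hairpin alone. Other hairpins among the 105, such as miR-466b and miR-466c, have a 3p value in common in the same way. For miR-32 the direction turned with the C2C12 library, since the 5p share was 52.5% in C2C12_vector (30.8 RPM summed) and 75.1% in C2C12_ATF4 but 96.6% to 96.9% in the hairpin libraries, against 82.6% and 87.4% in P19. For miR-466i the C2C12 libraries ranged from 57.7% to 97.2% and overlapped the 63.1% and 77.0% of P19.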

How the data were processed

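Small RNA of 8 mouse samples, 1 library each, was sequenced by the authors, who annotated reads with bowtie. Submitters' notes name mm10 and GRCm38. The miRNA release and how reads with several matches were assigned are not given in the sources used here. For P19 and for C2C12 vector and ATF4 cells the authors deposited RPM, scaled to reads on miRNAs, with values under 1 RPM at 0. For the C2C12 hairpin libraries they deposited counts, which were scaled here to CPM. Fold changes and p-values in these files come from the authors' own comparisons and were not used.

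P19_shNC and C2C12_vector were joined by miRNA name. miRNAs with at least 10 RPM in 1 library were called at 8-fold or more, with 0 as 1 RPM. The code for the calls was checked on simulated libraries with known large changes, which does not show whether the calls would repeat in other libraries. No test was possible with 1 library per line. The members and the 20 lists were chosen with earlier results of these data known. Named were the 10 highest of each library, the 10 largest ratios in each direction with at least 100 RPM, the 10 highest of each table alone, list members of at least 10 RPM and the 5 largest gaps in arm balance. The largest ratios were taken among miRNAs above 0 in both control libraries, and the 100 RPM applied to the higher. Sequences came from RefSeq and host genes from GENCODE vM21. Alternatives were other scalings (edgeR 4.0.16), limits, floors, libraries and sums by seed. Tools were Python 3.11.15, numpy 2.4.6, pandas 2.3.3, matplotlib 3.10.9 and R 4.3.3.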

Additional observations from a re-analysis of the deposited data

How the results depend on the processing

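No paired analysis was possible because the labels give no replicate numbers and each group is 1 library. Without replicates, construct, table and line cannot be told apart, and precision is limited by reads at low levels. The 87 and 65 calls stayed within 1.5 times of these numbers under TMM (73 and 68), upper-quartile and median-of-ratios scaling, other minimum levels, a 0.5 RPM floor, a 4-fold limit and without the most abundant miRNA. TMM moved the median log2 ratio of all joined miRNAs from 0.33 to -0.001, and calls for P19 made up 51.8% of calls in place of 57.2%. The number higher in P19 was 47 against the ATF4 library, where calls for P19 made up 43.9%. It was 234 with missing miRNAs set to 1 RPM (of 570), 233 with missing miRNAs filled from the shNC day 0 library, chosen after the data were seen (of 549), and 34 seeds after sums by seed, where 37 seeds were higher in C2C12.

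The share of P19_shNC with the miR-302b-3p seed was 8.43% without the most abundant miRNA and 34.8% in P19_shPerk. The share of C2C12_vector with the let-7 seed was 20.3% with bases 2 to 7 and 25.5% without the most abundant miRNA. It was 20.6% in ATF4 cells, 19.2% and 21.1% in shNC and shPerk cells at day 0, and 16.9% and 18.4% at day 3. The number of miRNAs that make up 50% of the P19 library was 6 in P19_shPerk. The number of hairpins with another main arm was 3 at 100 RPM and 5 against ATF4. Under the alternatives, 132 list medians kept their side of the limit. The exceptions were the miR-200 family (2.86) and the Sfmbt2 cluster (2.44) against ATF4, the mesenchymal miRNAs against shNC day 0 (-2.96), and the neuronal miRNAs (3.04) under upper-quartile scaling. Medians under the limit counted as kept also where their sign changed. Against shNC day 0 this was so for the miR-322/miR-503 cluster (1.31 to -0.92) and the haematopoietic miRNAs (-1.48 to 0.55), among others. All 160 values of the 20 miRNAs with the largest ratios kept their side of the limit. These miRNAs were chosen for their large ratios, so this was largely fixed in advance.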
